A study of Homo sapiens with 14 samples.

Results

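The 6 genes described here encode proteins that bind, retain, cut or regulate inosine-containing RNA, together with the core proteins of the paraspeckle: NONO, SFPQ, PSPC1, MATR3, SND1 and CARM1. They were chosen by symbol, as the rows of the RPKM table that carry these 6 names, out of 21574 rows. All 6 were found and all had a mean of at least 1 RPKM in each assay, so no gene was lost to a filter on low values. RPKM are reads scaled by the length of the transcript and by the mapped reads of the library.

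The study asked how loss of ADAR1, the enzyme that converts adenosine to inosine in double-stranded RNA, alters RNA secondary structure. Cells labelled HepG2, a human hepatoma line, received scrambled siRNA (control) or siRNA against ADAR1 (ADAR1 KD). The labels describe the siRNA as a stable transfection and the methods as a nucleofection, and no other genetic change was listed for either group. Of 14 samples, 8 were PARS-seq libraries (2 replicates for each nuclease and condition), 2 were RNA-seq libraries (1 for each condition) and 4 were Ribo-seq libraries (2 for each condition). In PARS-seq, poly-A-selected RNA is refolded and cut with S1 nuclease at unpaired bases or RNase V1 at paired bases, and each read starts at a cut. The study calls the replicates biological, and nothing in the labels says whether they came from separate cultures, so p-values measure the spread between these libraries.

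Paraspeckles are nuclear bodies built on the long noncoding RNA NEAT1, and NONO, SFPQ and PSPC1 are the 3 human members of the DBHS family, RNA-binding proteins that pair with each other and coat NEAT1. NONO, with SFPQ and the nuclear matrix protein MATR3, is known to bind heavily edited RNA and to hold it in the nucleus. SND1, also called Tudor-SN, is a nuclease linked to the breakdown of inosine-containing duplexes, and CARM1 is an arginine methyltransferase whose modification of NONO weakens its hold on RNAs with inverted Alu repeats. ADAR1 makes the inosines that these proteins read.

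In GENCODE v44 on GRCh37, the build of the authors' alignments, NONO lies at chrX:70474664-70521372 on the plus strand, SFPQ at chr1:35641979-35659047 on the minus strand and PSPC1 at chr13:20248892-20357159 on the minus strand. MATR3 has 2 overlapping gene records, at chr5:138609441-138667360 and chr5:138629363-138667366, both on the plus strand. SND1 lies at chr7:127292248-127732661 on the plus strand and CARM1 at chr19:10982229-11033751 on the plus strand. The table gives MATR3 only in 1 row joined with SNHG4 and SNORA74A, and SND1 only in 1 row joined with MIR593 and SND1-IT1. Values given below for MATR3 and SND1 are those of the joined rows, in which the RNAs cannot be told apart.

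ADAR itself was lower in KD than in control in each pair of values. In PARS-seq it was 40.7 and 46.9 RPKM in the control and 15.1 and 15.1 in KD, and in RNA-seq 54.8 in the control and 15.4 in KD. Its Ribo-seq values were 43.6 in the control and 8.73 in KD for replicate 1, but 55.5 and 44.0 for replicate 2, where the KD kept 0.794 of the control level. The hepatocyte markers went against the HepG2 label: all 9 (ALB, AFP, APOA1, APOB, TF, TTR, SERPINA1, FGB and HNF4A) were below 1 RPKM in all 10 value columns, with a highest value of 0.803 and all but HNF4A listed at 0 in all 4 Ribo-seq libraries. Of 5 fibroblast markers, 4 (COL1A1, COL3A1, DCN and LUM) passed 1 RPKM in some column, while COL1A2 was at most 0.123 RPKM. DCN and LUM had a mean below 1 RPKM in PARS-seq. The fibroblast list summed to 119 and 103 RPKM in PARS-seq control, of which COL3A1 alone was 96.2 and 71.8, and to 87.7 and 68.2 in KD. It summed to 79.2 and 54.4 in RNA-seq, and to 150 and 46.1 in Ribo-seq control and 111 and 47.9 in KD. LUM alone was 112 and 80.4 in Ribo-seq replicate 1 but 0.284 and 0 in replicate 2. The highest value among 4 endothelial markers was 0.517 RPKM and among 5 leukocyte markers 1.02. Replicate 1 and 2 of Ribo-seq stood apart across all genes, with a Pearson correlation of log2 values of 0.773 between the control libraries and 0.822 between the KD libraries, against 0.959 and 0.945 between control and KD of the same number. The part of these differences in the results below was not tested. In bulk libraries, fewer expressing cells and less RNA per cell cannot be told apart.

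The 3 DBHS genes covered a wide range of levels, and SFPQ and NONO stood among the most abundant RNAs of the cells. Each PARS-seq RPKM is the mean that the authors took of S1 and V1 within a replicate. On this scale SFPQ was 262 and 398 RPKM in the control and 461 and 577 in KD. Both KD values of SFPQ lay above both control values, and the KD was 1.76 times the control in replicate 1 and 1.45 times in replicate 2. SFPQ ranked at or above the 97.7th percentile of genes in all 4 PARS-seq values.

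NONO stayed level in PARS-seq, at 188 and 182 RPKM in the control and 191 and 185 in KD. These values overlapped between groups, and the ratio of KD to control was 1.01 in replicate 1 and 1.02 in replicate 2.

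PSPC1, the least abundant DBHS gene, was 24.8 and 21.5 RPKM in the control and 33.7 and 27.5 in KD in PARS-seq. Both KD values of PSPC1 exceeded both control values, by 1.36 times in replicate 1 and 1.28 times in replicate 2.

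Among the other proteins, the CARM1 values were low and apart: 6.82 and 7.80 RPKM in the control and 10.9 and 12.7 in KD. The KD of CARM1 was 1.60 and 1.63 times the control in the 2 replicates, the most even ratio of the genes that did not overlap. The MATR3 row was 47.8 and 43.1 RPKM in the control and 55.5 and 46.7 in KD, which overlapped. The SND1 row was 18.9 and 18.1 in the control and 16.2 and 19.0 in KD, also overlapping and with opposite directions in the 2 replicates.

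In all, 3 of the 6 genes had KD values above control values in PARS-seq and none had them below. Of all 11153 genes with a mean of at least 1 RPKM, 33.3% had both KD values above both control values and 27.1% had them below, so non-overlap was common in this assay. The median change of the 6 genes was 0.27 on the log2(RPKM + 1) scale, against 0.04 over all genes tested. That scale understates the change of low genes. As the columns are means of libraries of different nucleases, no SD or test was attached to them.

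**Figure D1:**
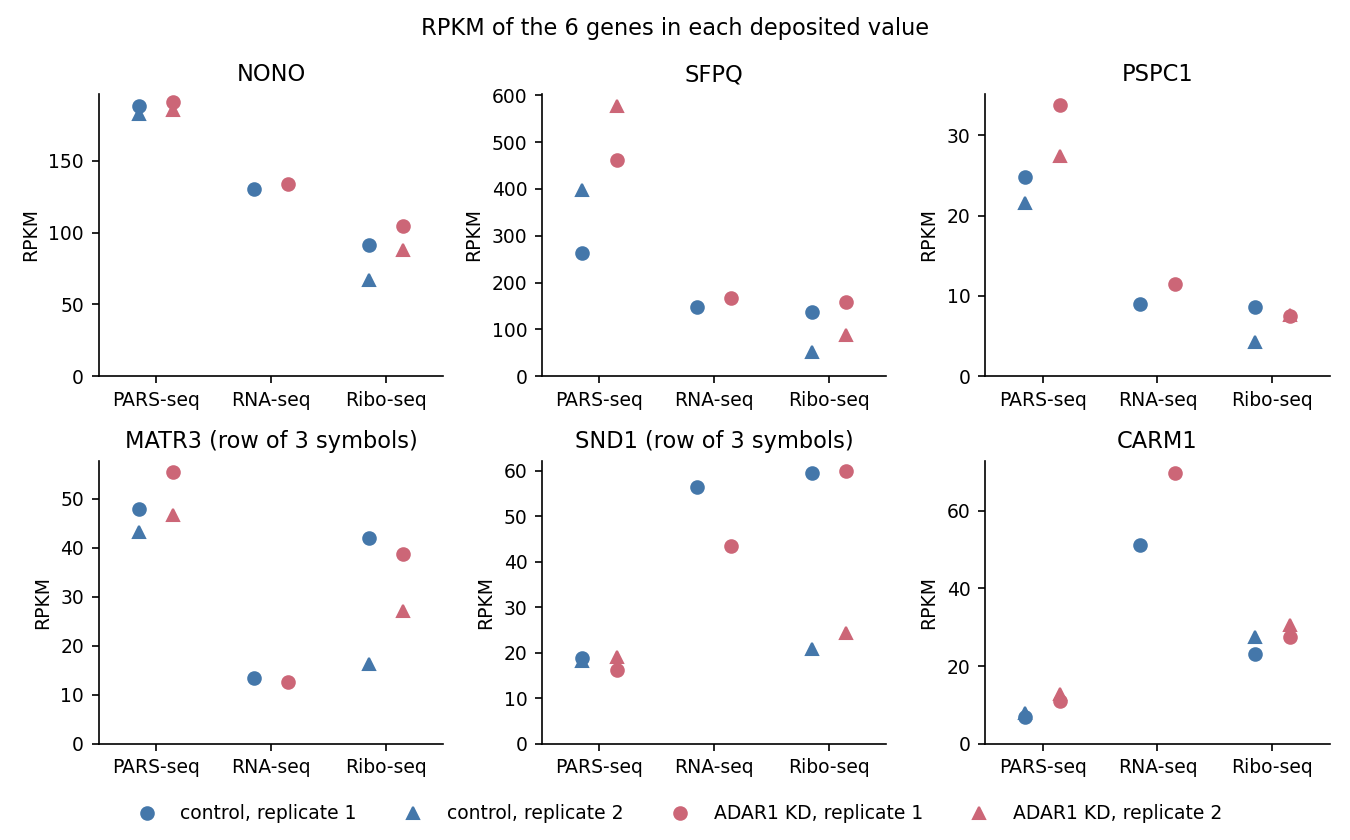
RPKM (y axis, each panel from 0) of the 6 genes in PARS-seq, RNA-seq and Ribo-seq, for control (blue) and ADAR1 KD (red), with circles for replicate 1 and triangles for replicate 2. PARS-seq points are the authors' means of S1 and V1, and RNA-seq has 1 library per condition. SFPQ, PSPC1 and CARM1 have both PARS-seq KD values above both control values, and SFPQ and the MATR3 and SND1 rows differ more between the Ribo-seq replicates than between conditions.

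RNA-seq gave 1 library per condition, so its differences had no replicate check. CARM1 went from 51.2 RPKM to 69.7, and the KD was 1.36 times the control. The SND1 row went from 56.5 to 43.5, or 0.770 of the control. These were the only 2 of the 6 genes past 1.25-fold on the log2(RPKM + 1) scale, 1 in each direction, while 14.2% of the 10946 genes tested were higher and 16% lower past the same fold.

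PSPC1 came close to that line in RNA-seq, with 8.99 RPKM in the control and 11.4 in KD, a ratio of 1.27 before a pseudocount of 1 is added. SFPQ was 148 in the control and 168 in KD, a ratio of 1.13, which is smaller than either PARS-seq ratio. NONO was 130 and 133, and the MATR3 row was 13.5 and 12.6. SFPQ, PSPC1 and CARM1 had higher KD values in both PARS-seq and RNA-seq, but of these only CARM1 passed 1.25-fold in RNA-seq on the log2(RPKM + 1) scale. NONO was close to equal in both. The MATR3 row was higher in KD within each PARS-seq replicate and lower in RNA-seq. The share of all genes higher in both assays was not counted, and the study reports that PARS-seq and RNA-seq fold changes correlate over genes.

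The genes also differed in how PARS-seq and RNA-seq placed them. In control cells the PARS-seq RPKM of CARM1 was 0.133 and 0.152 of its RNA-seq RPKM in replicates 1 and 2. Among 10158 genes, with 1 added to each RPKM, it stood at the 2.85th and 3.35th percentile of this ratio. The SND1 row had ratios of 0.334 and 0.320. The MATR3 row had ratios of 3.55 and 3.20, PSPC1 2.76 and 2.39, SFPQ 1.77 and 2.69, and NONO 1.45 and 1.40. The median over all genes, with 1 added to each RPKM, was 0.953 and 0.933. The order SFPQ, NONO, MATR3, PSPC1, SND1, CARM1 was the same in all 4 PARS-seq values, and no pair of neighbours in it had overlapping ranges. In RNA-seq, CARM1 stood above MATR3 and PSPC1, and PSPC1 was last. In Ribo-seq the ranges of SFPQ and NONO overlapped, as did those of SND1, MATR3 and CARM1, and PSPC1 was last in all 4 libraries.

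Ribo-seq counts RNA fragments covered by ribosomes, and none of the 6 genes passed the test there. SFPQ was 138 and 50.7 RPKM in control replicates 1 and 2 and 158 and 87.3 in KD, so the values overlapped and the control replicates differed 2.71-fold. Its fitted change was 0.49 ± 0.72 (SE, n = 2 libraries per condition, limma adjusted p = 1.00). Within replicates, the KD was 1.15 times the control in replicate 1 and 1.72 times in replicate 2.

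NONO was 91.4 and 67.0 RPKM in the control and 105 and 88.0 in KD, overlapping, and the KD was 1.15 and 1.31 times the control of its own number. Its 2 control libraries differed 1.37-fold, the least of the DBHS genes. PSPC1 was 8.63 and 4.21 in the control and 7.48 and 7.68 in KD, which gave ratios of 0.866 in replicate 1 and 1.82 in replicate 2.

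The MATR3 row split in the same manner, with 42.0 and 16.2 RPKM in control, 38.6 and 27.1 in KD, and ratios of 0.921 and 1.67. As a fold, though not in RPKM, the SND1 row showed the widest gap between replicates, 59.4 and 20.9 in the control and 59.9 and 24.3 in KD. Its ratios of KD to control were 1.01 and 1.16. CARM1 was 23.0 and 27.5 in the control and 27.6 and 30.7 in KD, and it was the 1 gene of the 6 whose Ribo-seq values did not overlap, with 27.5 as the higher control and 27.6 as the lower KD value. Over 10882 genes tested, 10.7% had both KD values above both control values and 7.12% had them below.

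The fitted changes of the other 5 genes ranged from 0.11 ± 0.75 (SND1 row) to 0.29 ± 0.61 (MATR3 row) on the log2(RPKM + 1) scale, all with an adjusted p of 1.00 by limma. No gene of the 10882 was called by this fit (0%), and 43 (0.395%) had an unadjusted p under 0.05, none of them among the 6. This fit left out the replicate numbers, so the gap between replicates entered its SE. With the numbers as a block, 143 genes were called, none of them among the 6, but no label says what a shared number marks. An exact permutation test of 2 against 2 libraries could not give a two-sided p below 0.333. In 4 of the 6 genes the KD value exceeded the control in both replicates, as in 31.3% of all genes tested, and in none of the 6 was it lower in both, as in 21.8% of all genes. Leaving out control replicate 2 turned the sign for SFPQ (to -0.23), PSPC1 (-0.17), MATR3 (-0.36) and SND1 (-0.62), and leaving out KD replicate 1 turned it for SND1 (-0.52).

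**Figure D2:**
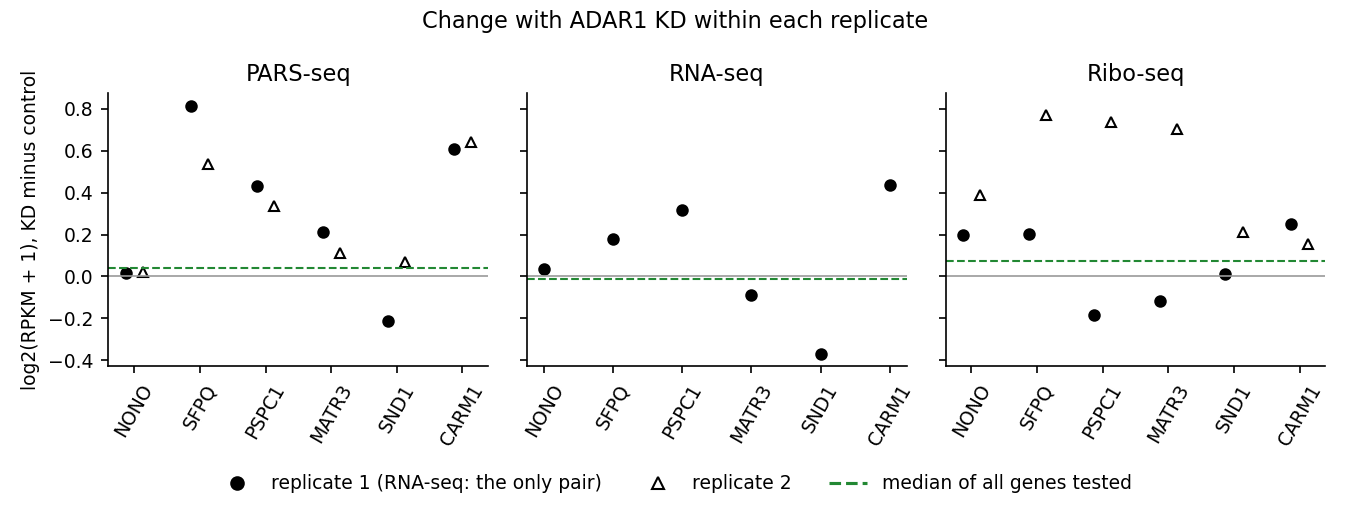
Difference in log2(RPKM + 1) between ADAR1 KD and control (y axis) for the 6 genes in PARS-seq, RNA-seq and Ribo-seq, with filled circles for replicate 1 and open triangles for replicate 2. The dashed line is the median of all genes tested, 0.04, -0.01 and 0.08 in the 3 assays. The replicates lie close together in PARS-seq for CARM1 (0.61 and 0.64) and apart in Ribo-seq for PSPC1 (-0.18 and 0.73).

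Translation efficiency, the Ribo-seq RPKM over the RNA-seq RPKM of the same condition, was highest for the MATR3 row, at 3.11 and 1.21 in control with Ribo-seq replicates 1 and 2. The median over all genes, taken with 1 added to each RPKM, was 0.767 and 0.655. The genes named next fell on the same side of it with or without the added 1. CARM1, at 0.449 and 0.537, and NONO, at 0.702 and 0.514, were below it with both replicates. SFPQ (0.928 and 0.342), PSPC1 (0.960 and 0.469) and the SND1 row (1.05 and 0.370) were above it with replicate 1 and below it with replicate 2. The KD values were 3.06 and 2.15 for the MATR3 row and 0.396 and 0.440 for CARM1.

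For CARM1 the ratio of KD to control efficiency was below 1 with both replicates, at 0.881 and 0.821. Of 10142 genes, 23.3% were lower with both, and shares of genes were taken with 1 added to each RPKM. It was above 1 with both for SFPQ (1.01 and 1.52), NONO (1.12 and 1.28) and the SND1 row (1.31 and 1.51), and 35.7% of genes were higher with both. PSPC1 (0.681 and 1.43) and the MATR3 row (0.984 and 1.78) changed direction between replicates. Each ratio rests on the same single RNA-seq library per condition, so the 2 replicates are not independent and no test was made.

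The other genes of the pathway were taken from lists of related proteins. NEAT1, the RNA scaffold of paraspeckles, was 199 and 340 RPKM in PARS-seq control and 529 and 787 in KD, so that the values did not overlap and the ratios were 2.67 and 2.31. In RNA-seq, however, NEAT1 was 184 in the control and 161 in KD, a ratio of 0.875. Its Ribo-seq values were 7.80 and 45.2 in the control and 3.24 and 26.9 in KD.

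Of 6 further proteins needed to assemble paraspeckles, 2 had KD values above control in PARS-seq, 0 below, and 4 overlapped, with a median change of 0.34. Over all genes tested the shares were 33.3% above and 27.1% below, so the share above was that of all genes. DAZAP1, an RNA-binding protein, was 46.4 and 57.6 RPKM in the control and 64.3 and 81.7 in KD. SMARCA4, the ATPase of the SWI/SNF chromatin remodeller, was 15.0 and 25.3 in the control and 27.2 and 38.2 in KD. HNRNPK, an hnRNP whose row also holds another symbol, had the smallest ratio of mean values, 0.926. RBM14, in a row of 3 symbols, had the next smallest, 1.11. None of the 6 passed 1.25-fold in RNA-seq, where 14.2% of all genes tested were higher and 16% lower. None was called in Ribo-seq, as was true of all 10882 genes tested.

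Of 28 other paraspeckle proteins, 24 passed the filter in PARS-seq, and 11 of those had KD values above control, 2 below and 11 overlapping, with a median change of 0.18, against 33.3% above and 27.1% below over all genes tested. HNRNPUL1, an hnRNP U-like protein, had the largest ratio, with 29.8 and 34.0 RPKM in the control and 61.5 and 79.9 in KD, and was 1.61 times the control in RNA-seq. TARDBP, which encodes the RNA-binding protein TDP-43, had a ratio of mean values of 1.64, but its values of 604 and 1062 in the control and 1004 and 1730 in KD overlapped. TARDBP was only 23.1 and 22.9 RPKM in RNA-seq. RBM3, a cold-inducible RNA-binding protein, was 72.7 and 51.3 in the control and 50.0 and 44.9 in KD, and CPSF7, a cleavage factor subunit, was 31.7 and 28.9 in the control and 27.1 and 28.4 in KD. In RNA-seq, 2 of 24 were higher and 1 lower past 1.25-fold, against 14.2% higher and 16% lower over all genes tested.

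Of 12 other proteins that bind or cut inosine RNA or edited duplexes, 4 had higher and 1 lower KD values in PARS-seq, and 7 overlapped, with a median change of 0.05. The share above was again that of all genes tested (33.3%), with 27.1% of all genes below. STAU1, which binds duplexes in 3′ ends of mRNAs, was 24.2 and 27.3 in the control and 31.8 and 35.2 in KD. ENDOV, the endonuclease that cuts RNA next to inosine, whose row also holds a miRNA symbol, was the 1 gene lower, with 3.84 and 4.70 in the control and 2.89 and 3.27 in KD. STAU2 had a ratio of mean values of 0.819 with overlapping values. In RNA-seq, 1 of the 12 was higher and 3 were lower past 1.25-fold, beside 14.2% and 16% of all genes tested.

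CARM1 belongs to the protein arginine methyltransferases, of which 7 others were in the table and 6 passed the filter in PARS-seq. PRMT5, which makes symmetric dimethylarginine, was 45.5 and 39.5 RPKM in the control and 65.2 and 75.6 in KD, and 1.46 times the control in RNA-seq. PRMT1, the main asymmetric arginine methyltransferase, was 36.1 and 35.7 in the control and 41.5 and 54.3 in KD, and 1.36 times the control in RNA-seq. PRMT2 was lower, with 12.3 and 10.5 in the control and 7.60 and 8.13 in KD, and PRMT7 overlapped at a ratio of mean values of 1.03. Of the 6, 3 were higher and 1 lower past 1.25-fold in RNA-seq, where 14.2% of all genes were higher and 16% lower, from 1 library per condition. No gene of the 4 protein lists was called in Ribo-seq, where 0% of all genes tested were called. None had an unadjusted p under 0.05, as 0.395% of all genes tested did.

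**Figure D3:**
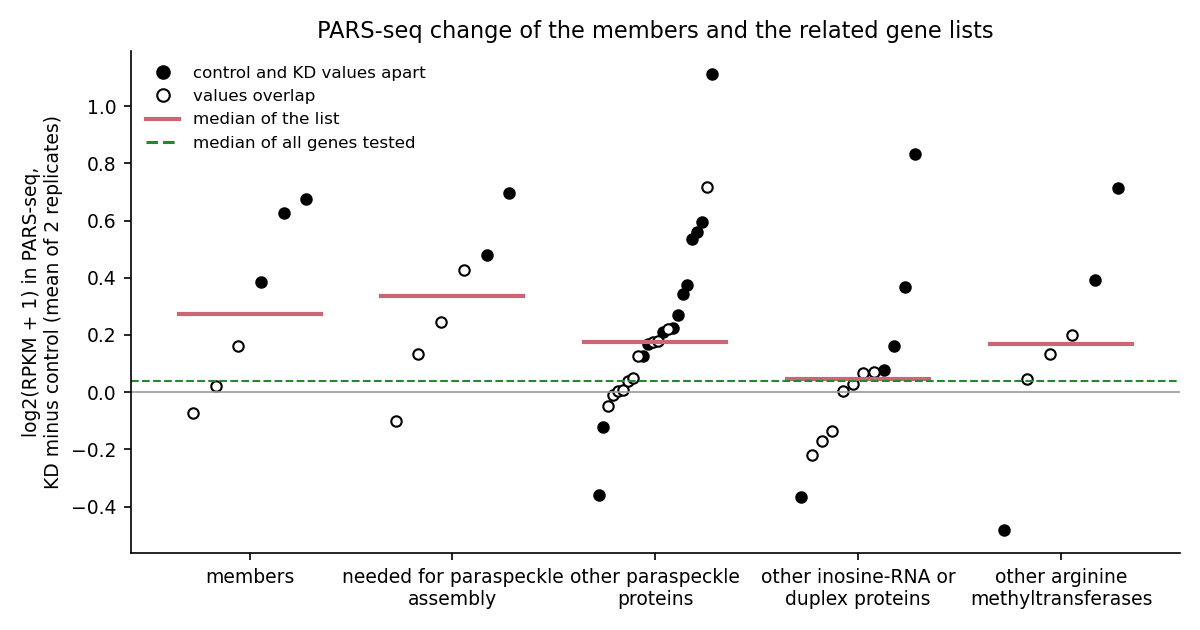
Mean change in PARS-seq log2(RPKM + 1) from control to ADAR1 KD (y axis) for each gene that passed the filter, by list (x axis), with filled points where the control and KD values do not overlap. Red bars are list medians (0.27 for the 6 genes, 0.34, 0.18, 0.05 and 0.17 for the other lists) and the dashed line is the median of all genes tested, 0.04.

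Over the 10 value columns, after the mean of each assay was subtracted, MATR3 and NONO had the most similar patterns among the 6 genes (Pearson's r = 0.90) and SND1 and CARM1 the least similar (r = -0.33). The genes most like each one among 3572 genes with at least 10 RPKM in each assay were RPF1, ORC1 and SSB for NONO (r from 0.976 to 0.979), and RANBP1, HNRNPM and LMNB1 for SFPQ (0.990 to 0.992). They were PPP1CB, SDC2 and ETF1 for PSPC1 (0.950 to 0.974), DEGS1, TES and MRPL15 for the MATR3 row (0.988 to 0.991), COPG, MESDC2 and SELS for the SND1 row (0.992 to 0.995), and DPP7, CBS and CASC3 for CARM1 (0.976 to 0.985). The columns share libraries and include the gap between Ribo-seq replicates, so these values describe the columns and carry no test.

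SFPQ was the 1 gene that could be followed along its transcript, as a supplementary list of the study pairs it with the UCSC transcript uc001bys.3, of 3073 bases. That list was itself chosen by a change in paired bases, so the shares of paired bases below are a description. Its read starts numbered 55057 and 83208 in S1 control, 108921 and 95395 in S1 KD, 57246 and 77538 in V1 control and 106114 and 104766 in V1 KD. On 4722 transcripts listed in all 8 libraries, the libraries held 88565995 to 197781370 read starts, and S1 control replicate 1 listed these transcripts only. The most covered transcript, uc022brd.2, took 26.0% and 39.1% of S1 control and 48.9% and 46.1% of S1 KD libraries, and 38.2% and 46.4% of V1 control and 59.3% and 47.0% of V1 KD libraries.

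SFPQ read starts were concentrated at 1 place near the 3′ end of the transcript. Bases 2701 to 2800 held 39.5% and 54.4% of the SFPQ read starts in S1 control and 60.6% and 66.0% in S1 KD. In V1 the same 100 bases held 25.5% and 39.6% in the control and 33.1% and 38.7% in KD. The S1 shares were higher in both KD libraries than in both control libraries, and the V1 shares overlapped.

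Within this stretch the nucleases cut at different bases. Position 2795 was the highest S1 position in all 4 S1 libraries, with counts of 4146 and 8359 in control and of 11772 and 11593 in KD, against 104 to 331 in V1. Positions 2795 to 2798 together held 24.4% and 33.0% of S1 read starts in the control and 36.9% and 42.4% in KD, against 0.536% to 1.17% in the 4 V1 libraries. Position 2784 was the highest V1 position in all 4 V1 libraries, with counts of 3029 and 7340 in control and of 6626 and 9371 in KD, against 25 to 78 in S1.

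A second covered region lay at bases 1201 to 1300, with 6.63% to 9.40% of S1 and 9.33% to 12.0% of V1 read starts, and another at bases 1701 to 1900, with 7.28% to 11.7% in S1 and 16.7% to 22.2% in V1. The first 900 bases held 0.259% to 0.674% of S1 and 1.06% to 2.08% of V1 read starts, and 78 to 102 of these bases in S1 and 289 to 348 in V1 had any read start. Where these positions fall relative to the coding sequence was not analysed here.

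**Figure D4:**
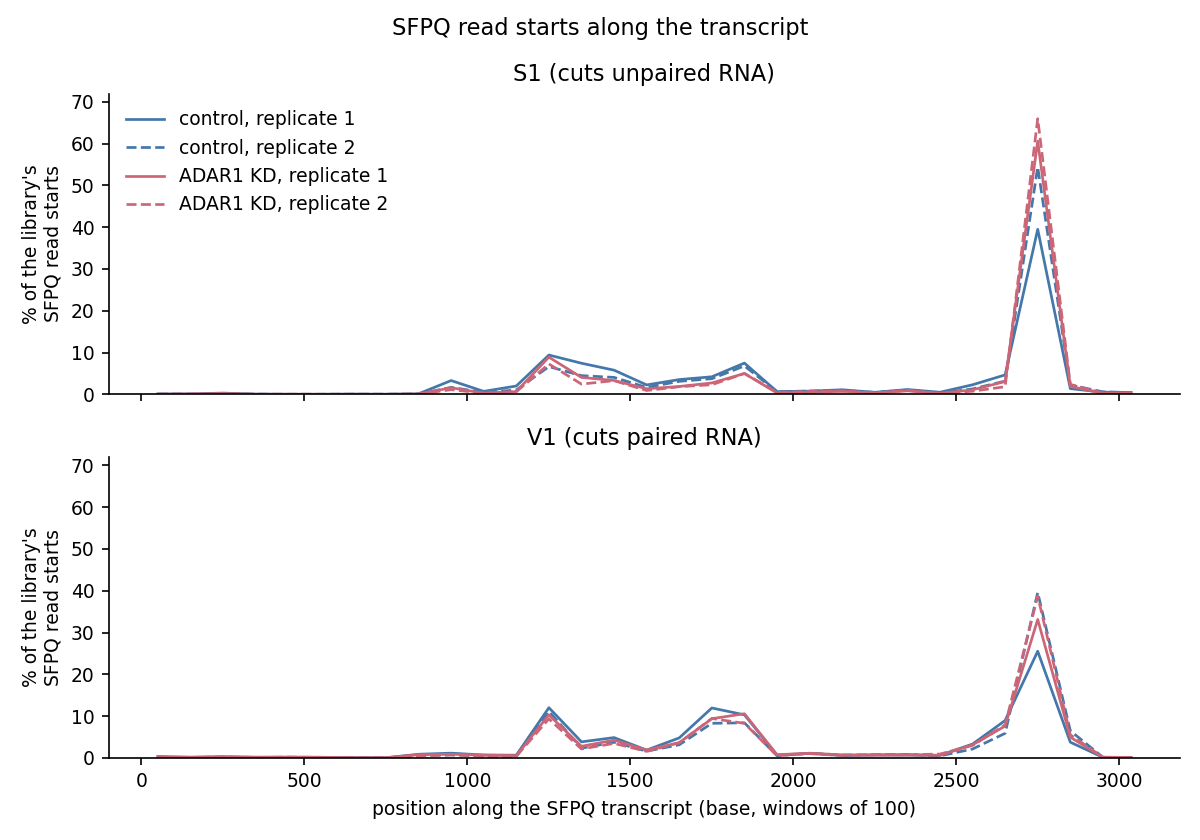
Share of each library's SFPQ read starts (y axis, %) in consecutive windows of 100 bases along the transcript (x axis), for S1 (top) and V1 (bottom), with control in blue and ADAR1 KD in red, replicate 1 solid and replicate 2 dashed. The window at bases 2701 to 2800 is the highest in all 8 libraries, with 39.5% to 66.0% in S1 and 25.5% to 39.6% in V1.

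Scaled to the library's read starts on the common transcripts, SFPQ had 521 and 737 read starts per 1000000 in S1 control and 850 and 1077 in S1 KD. The groups did not overlap, and the fitted change was 0.63 ± 0.27 on the log2 scale (SE, n = 2 libraries per condition, limma adjusted p = 0.0785), short of the threshold of 0.05. Of 4721 transcripts tested in S1, 1.48% were called higher and 18.6% lower. This scaling moved the median transcript by -0.36, and SFPQ stood at the 97.5th percentile of changes. With TMM scaling, which set the median to 0.00, the change was 0.99 and was called (adjusted p = 0.0156), as were 6.52% of transcripts in that direction. It was also called with totals that left out the most covered transcript (0.98, limma adjusted p = 0.0112). A replicate block left the change at 0.63 and called it (limma adjusted p = 0.0322), but no label says what a shared replicate number marks. With library size scaling and 1 library left out, the change was called only without control replicate 2 (0.88, adjusted p = 0.00906), and it was 0.38, 0.80 and 0.46 without control replicate 1, KD replicate 1 and KD replicate 2 (adjusted p = 0.482, 0.246 and 0.546).

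Bases 2701 to 2800 had 206 and 401 read starts per 1000000 in the control and 515 and 711 in KD, with the groups apart. All other bases of SFPQ together had 316 and 336 in the control and 335 and 367 in KD, which overlapped. When the most covered transcript was left out of the totals, those other bases had 427 and 551 in the control and 655 and 680 in KD, which did not overlap, so whether the groups overlapped there rested on the scaling. Without bases 2701 to 2800 the fitted S1 change was 0.11 ± 0.25 (limma adjusted p = 0.792), or 0.47 ± 0.23 with TMM scaling (adjusted p = 0.184). The stretch was chosen as the most covered 100 bases over all 8 libraries, after the data were seen.

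In V1, SFPQ had 557 and 731 read starts per 1000000 in the control and 537 and 947 in KD, which overlapped. The V1 fit used the 16885 transcripts that passed the filter among those listed in all 4 V1 libraries. Its SFPQ change was 0.16 ± 0.36 (limma adjusted p = 0.872), with a median transcript change of -0.14, and it turned to -0.03 without control replicate 1 and -0.23 without KD replicate 2. It was 0.35 with TMM scaling (adjusted p = 0.412, median 0.05) and 0.43 without the most covered transcript (adjusted p = 0.318, median 0.13). In V1, 2.05% of these transcripts were called higher and 7.9% lower. The difference between the V1 and the S1 change was -0.47 ± 0.43 (limma interaction, adjusted p = 1.00), and no transcript was called (0%), with 15 at an unadjusted p under 0.05. Without bases 2701 to 2800 the difference was -0.01 ± 0.41.

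**Figure D5:**
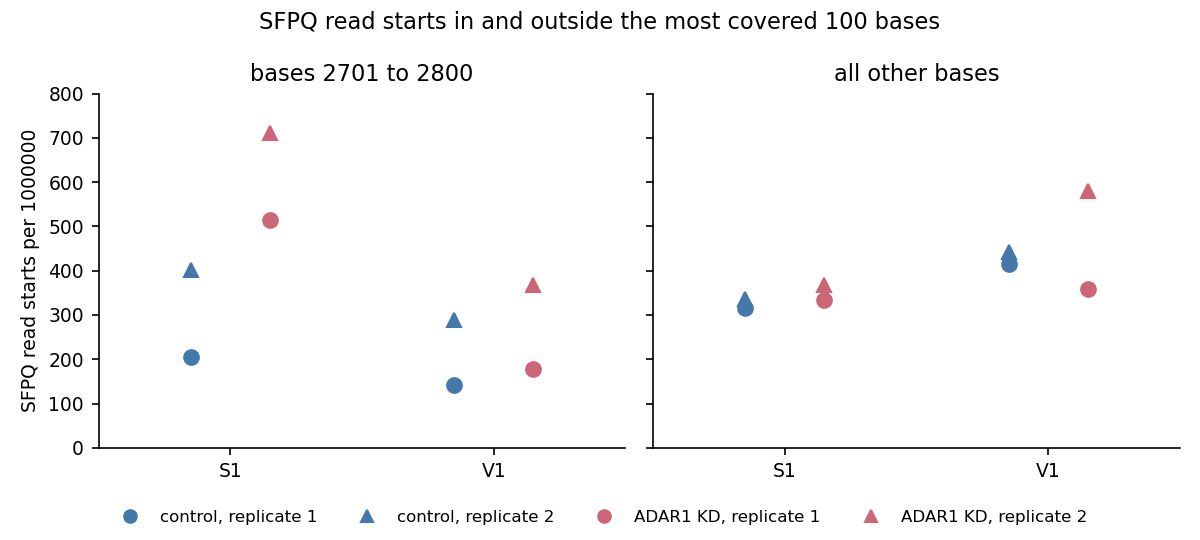
SFPQ read starts per 1000000, scaled to each library's read starts on the common transcripts (y axis, from 0), in bases 2701 to 2800 (left) and in all other bases (right), by nuclease (x axis), for control (blue) and ADAR1 KD (red), circles for replicate 1 and triangles for replicate 2. In S1 the KD values are above the control values on the left (515 and 711 against 206 and 401) and overlap on the right (335 and 367 against 316 and 336), where they are apart (655 and 680 against 427 and 551) if the most covered transcript is left out of the totals.

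The positions cut in SFPQ repeated between libraries of the same nuclease. Over its 3073 bases, Spearman's R between S1 libraries was 0.813 and 0.822 within a condition and 0.810 to 0.838 between control and KD. It was 0.817 and 0.839 within and 0.826 to 0.835 between conditions for V1, and 0.462 to 0.518 between S1 and V1. By rank, the ranges within and between conditions overlapped. Pearson's r of S1 over all bases also overlapped, at 0.971 and 0.995 within a condition and 0.949 to 0.997 between conditions. Outside bases 2701 to 2800, a stretch chosen after the data were seen, it was 0.973 and 0.976 within and 0.916 to 0.963 between conditions. Spearman's R of S1 over the same bases overlapped, at 0.797 and 0.809 within and 0.793 to 0.825 between conditions. For V1 outside that stretch Pearson's r was 0.943 and 0.963 within and 0.961 to 0.974 between conditions. Bases are not independent replicates, and no p was attached to them.

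Bases were called paired (DS) or unpaired (SS) where Fisher's exact test of V1 against S1 read starts within a replicate gave p under 0.05. The test set 1 V1 library against 1 S1 library and covered counting error only, since amplified reads are not independent molecules. The share DS/(DS + SS) was 65.1% and 61.9% in control, from 622 and 626 DS bases and 333 and 386 SS bases. It was 60.3% and 65.3% in KD, from 652 and 691 DS bases and 430 and 367 SS bases. The shares overlapped, with means of 63.5% ± 2.31 (SD, n = 2) in the control and 62.8% ± 3.57 (SD, n = 2) in KD. By number, the share was lower in KD in replicate 1 and higher in KD in replicate 2. The study's list kept transcripts that changed in the same direction in both replicates, so this calculation did not reproduce its result for SFPQ.

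All 4 pairs of libraries called 418 bases DS and 221 bases SS, and 0 bases were DS in both control replicates and SS in both KD replicates or the reverse. When read starts were instead set against the transcript's own total, the share was 60.5% and 62.0% in the control and 73.3% and 69.6% in KD, and with bases of at least 20 read starts the KD mean was 3.58 points above the control mean. The direction of this share thus rested on the reference total and on the minimum of read starts. In bases 2701 to 2800, both control replicates called 46 bases DS and 28 SS, and both KD replicates 45 DS and 33 SS.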

How the data were processed

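Samples of PARS-seq, RNA-seq and Ribo-seq were grouped by their labels. The authors trimmed reads (cutadapt), aligned them to hg19 (bowtie2, local mode), took unique reads per RefSeq transcript (coverageBed) and deposited RPKM; for PARS-seq they deposited the mean RPKM of S1 and V1. They also deposited read start counts per base of UCSC knownCanonical transcripts, not normalized. In the table, 1243 rows join several symbols, and members were matched by symbol within a row. Read numbers behind RPKM are unknown; by the most common ratio of low values, Ribo-seq control replicate 2 had 3.34 times the reads of replicate 1.

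Members and lists were chosen with earlier results of these data known. Named genes were the members, ADAR, NEAT1, the 2 largest and 2 smallest PARS-seq ratios of each list, and the 3 genes most like each member. A gene under this rule is not reported here. Changes were fitted with limma 3.58.1 (R 4.3.3) on log2(RPKM + 1) where the mean was at least 1, and on log2 read starts with 0.5 added where 2 libraries had at least 10 and all had 15 in total, with Benjamini-Hochberg adjustment over all features, and were tested on simulated data. TMM factors were computed from their definition. Alternatives were other pseudocounts, filters, centring, scaling, a replicate block and leaving out libraries. Fits without bases 2701 to 2800 were added after the data were seen.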

Additional observations from a re-analysis of the deposited data

How the results depend on the processing

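The 6 genes kept the same number of non-overlapping PARS-seq values, 3, under another pseudocount, filter or centring, and 2 or 3 of them passed 1.25-fold in RNA-seq, the third being PSPC1 with a pseudocount of 0.1 or after centring. NONO in PARS-seq was -0.02 after median centring. Replicate numbers joined only 2 pairs, which deviated together (correlation of 0.81 in Ribo-seq, 0.47 in S1 and 0.39 in V1). With a replicate block, Ribo-seq called 143 genes (85 higher, 58 lower) in place of 0 and none of the 6, and the S1 change of SFPQ, still 0.63, was called (adjusted p = 0.0322); the block changed no other call on the 6 genes. The S1 change was 0.99 with TMM scaling and 0.98 without the most covered transcript, both called. Leaving out 1 library in turn gave 0 Ribo-seq calls each time, and ranges of 0.38 to 0.88 for SFPQ in S1, -0.23 to 0.56 in V1, -0.76 to -0.17 for the difference of V1 and S1 (no test) and -0.003 to 0.50 for the median log2 change in translation efficiency, with 0.28 from both replicates. In Ribo-seq the ranges were -0.23 to 1.20 for SFPQ, -0.17 to 0.72 for PSPC1, -0.36 to 0.95 for MATR3, -0.62 to 0.84 for SND1, 0.07 to 0.51 for NONO and 0.08 to 0.33 for CARM1. A fit with 1 library in an arm assumes that it varies like the others. The KD minus control difference in the SFPQ share of paired bases was -0.71 points, 10.2 against the transcript's own totals and 3.58 for bases with at least 20 read starts; the cause was not tested. The read numbers behind RPKM are unknown, so no counting error can be given for PSPC1, the lowest of the 6 in Ribo-seq.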
